A study of Mus musculus with 18 samples.

Results

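The comparison set microglia sorted from adult mouse brain against the macrophages sorted from mouse brain at embryonic day 12.5 (E12.5), and asked which transcripts separate the 2 ages. It rested on the 4 libraries labelled as adult brain and the 4 labelled as E12.5 brain, which were 8 of the 18 libraries of the series. From each library the wells that had received 1 cell and held at least 300 unique molecular identifiers (UMIs, tags that count each captured RNA molecule once) on gene rows were kept. This left 631 adult and 718 E12.5 cells, 1349 of the 3012 kept cells of the series. The UMIs of the kept cells were summed within each library, and the 8 sums were compared over all genes.

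All mice were C57BL/6J animals that carried the CX3CR1-GFP reporter, in which green fluorescent protein is expressed from the locus of the fractalkine receptor gene Cx3cr1, and none was treated. The gate at E12.5 took cells positive for CD45, CD11B and CX3CR1-GFP, and that in adult took cells intermediate for CD45 and CD11B and positive for CX3CR1-GFP, so the gate differed with age. No age in weeks was given for the adult mice. Single cells were profiled by MARS-seq, a plate method that reads the 3' end of polyadenylated RNA; the series also held E18.5 brain and E12.5 yolk sac libraries.

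The adult libraries held 74562 to 99494 UMIs and the E12.5 libraries 228467 to 534219. The median cell had 521 UMIs and 353 genes in adult and 1725 UMIs and 978 genes at E12.5. Adult replicates 1 and 2 came from one plate and replicates 3 and 4 from another, and the E12.5 replicates were arranged in the same way. All adult libraries were sequenced in 1 batch, the 2 E12.5 plates in 2 others, and no batch held both ages, so age, gate, depth and sequencing batch cannot be told apart within these 8 libraries. Each age carried a single subject number, and nothing in the labels ties a replicate to its own animal. The p-values therefore measure the spread between libraries, which may be technical. The 2 libraries of a plate entered the test as separate replicates, though E12.5 libraries differed less within plates than between them. Each library used the same 192 well barcodes, and no pair of sequencing batch and pool barcode was shared between libraries.

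Microglia are the resident macrophages of the brain. They descend from yolk sac progenitors that enter the embryonic brain, divide there, and persist into adult life by slow self-renewal. Mature microglia are known for purinergic and chemokine receptors that sense the surrounding tissue, for complement C1q and lysosomal enzymes, and for dependence on the CSF1 receptor and on TGF-beta signalling. Macrophages of the embryonic brain are known instead for division and for uptake of dying cells and lipid.

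Transcripts of microglia were present in nearly every cell of both ages. All 631 adult cells held at least 5 UMIs of the 13 microglial marker genes, among them Tmem119 and P2ry12, and 700 of the 718 E12.5 cells held at least 3. These markers took a median of 5.54% of a cell's UMIs in adult and 1.30% at E12.5. Of the genes encoding the proteins used in the sort, Cx3cr1 was measured at 352, 242, 291 and 416 CPM in the adult libraries and 180.0, 238, 124 and 105 CPM in the E12.5 libraries, where CPM are counts of UMIs scaled to a library of 1000000. Every adult library lay above every E12.5 library, with a log2 fold change 0.99 ± 0.29 (SE), adjusted p = 0.00751. Adjusted p-values are from edgeR's quasi-likelihood test with Benjamini-Hochberg adjustment over all tested gene rows, called under 0.05. Ptprc, which encodes CD45, was measured at 90.5, 33.0, 52.0 and 67.1 CPM in the adult libraries and 322, 219, 94.3 and 114 CPM in the E12.5 libraries, and it was lower in adult (log2 fold change -1.63 ± 0.40 (SE), adjusted p = 0.00170). Itgam, which encodes CD11B, had 676 ± 60.6 against 382 ± 173 CPM in adult and E12.5 (mean ± SD, n = 4 each) and did not pass the test (log2 fold change 0.83 ± 0.38, adjusted p = 0.0983). Neither call on the gate genes held under every alternative. With sequencing batch as a covariate, which could be estimated only through the yolk sac libraries, the log2 fold change was 0.07 (adjusted p = 0.952) for Cx3cr1 and -0.91 (adjusted p = 0.248) for Ptprc. Without the E12.5 plate of replicates 1 and 2, Ptprc was at -0.86 (adjusted p = 0.113) and Itgam at 1.42 (adjusted p = 0.0318), and without the adult plate of replicates 3 and 4 Cx3cr1 was at 0.80 (adjusted p = 0.134).

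Some transcripts stood high in 1 adult library only. By a threshold of at least 100 CPM and at least 4 times the next library of the group, 51 gene rows were high in a single adult library, against 6 in a single E12.5 library. They numbered 14, 9, 18 and 10 in adult replicates 1 to 4. The counts of the 2 ages are not alike, since the adult libraries held fewer UMIs and reached 100 CPM with fewer of them. By the same threshold 5 rows were high in a single E18.5 library and 10 in a single yolk sac library. Of the 51, 28 were tested, 1 was called higher in adult (Ly6c2, a monocyte surface protein) and 3 lower. Ly6c2 was measured at 0, 44.0, 1870.3 and 53.6 CPM in the adult libraries and 0, 1.87, 8.57 and 8.75 CPM in the E12.5 libraries, and it was seen in 82 of 163 cells of adult replicate 3 against 0, 4 and 4 cells in replicates 1, 2 and 4. Its log2 fold change fell from 6.99 (adjusted p = 0.00422) to 2.99 (adjusted p = 0.204) without adult replicate 3. Rpl32, a ribosomal protein gene, held 2895, 65.9, 72.7 and 134 CPM in the adult libraries, with replicate 1 far above the others.

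Proteases of neutrophil granules were also uneven between adult libraries. Prtn3, which encodes proteinase 3, was seen in 41 of 163, 151 of 158, 134 of 163 and 37 of 147 cells of adult replicates 1 to 4, and in 6 of 185 to 21 of 187 cells of the E12.5 libraries. Ctsg, which encodes cathepsin G, was seen in 15, 52, 1 and 72 adult cells, and Mpo, which encodes myeloperoxidase, in 111, 75, 10 and 20. None of these transcripts was found in the 2 empty wells of each library. Such wells held a median of 22.5 UMIs in adult and 43 at E12.5, too few for an absence to be informative. A UMI of Prtn3, Elane, Ctsg or Mpo was present in 524 adult cells (83.0%) and in 138 E12.5 cells (19.2%), and the microglial markers took 5.54% of the UMIs of adult cells with such a transcript and 5.57% of those without. S100a8, S100a9, Ltf, Ngp and Retnlg, other markers of neutrophils and their precursors, were at 0 in all adult libraries. At E12.5, 5 of the 11 rows of that list were likewise at 0. Summed over the 11 rows, the level was 2803 to 9725 CPM in adult and 206 to 256 CPM at E12.5.

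**Figure D1:**
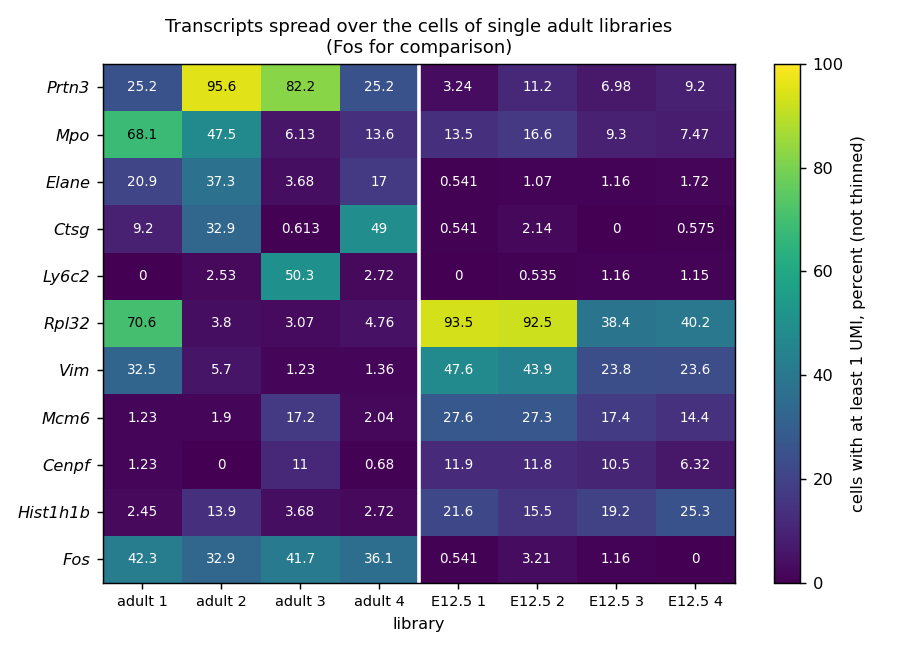
Percent of kept cells with at least 1 UMI, not thinned, of 11 transcripts (rows) in the 4 adult and 4 E12.5 libraries (columns); colour and printed number give the same value. Prtn3 ranges from 25.2% to 95.6% between adult libraries and Ly6c2 from 0 to 50.3%, while Fos, shown for comparison, stays between 32.9% and 42.3% in adult.

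Markers of other cell types were summed in each library. Monocyte markers summed to 10.1 to 1881 CPM in adult and 21.9 to 38.6 CPM at E12.5, with 7 of 10 rows at 0 in adult, among them Ccr2, Plac8, Fn1 and Vcan. Astrocyte markers summed to 111 to 208 CPM in adult and 7.49 to 60.0 CPM at E12.5, with 7 of 10 rows at 0 in adult, among them Aqp4, Gfap, Aldh1l1, Slc1a2 and Gja1; Slc1a3 was the one tested. Neuron markers came to 0 to 20.1 CPM in adult and 43.1 to 137 CPM at E12.5, with 8 of 10 at 0 in adult, and neural progenitor markers to 20.8 to 704 CPM in adult and 718 to 919 CPM at E12.5, with 6 of 9 at 0 in adult; the upper adult value of the second list was Vim in replicate 1. For oligodendrocytes the sums were 76.9 to 231 CPM in adult and 154 to 185 CPM at E12.5, and for endothelial and mural cells 0 to 31.2 CPM in adult and 26.3 to 144 CPM at E12.5. Erythroid markers summed to 20.1 to 134 CPM in adult and 16.8 to 508 CPM at E12.5, and T and NK cell markers to 0 to 11.0 CPM in adult and 0 to 13.1 CPM at E12.5. B cell markers held 20.1 to 67.1 CPM in adult and 77.1 to 140.4 CPM at E12.5, blood progenitor markers 416 to 529.9 CPM in adult and 311 to 484 CPM at E12.5, and platelet markers 291 to 439.5 CPM in adult and 78.8 to 206 CPM at E12.5, with Ppbp and Itga2b at 0 in adult. Rows at 0 at E12.5 numbered 2 for monocytes, 3 for astrocytes, 0 for neurons, 1 for neural progenitors and 2 for platelets. The adult libraries held fewer UMIs, so a row is more easily at 0 there. The part of these markers in the results was not tested.

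Of the 4883 gene rows with enough counts to test, edgeR's quasi-likelihood test called 1883 (38.6%). In adult, 870 were higher (17.8%) and 1013 were lower (20.7%). The median log2 fold change over all tested rows was -0.07. For 1675 rows (34.3%) the adult and E12.5 libraries did not overlap, and 1503 of the called rows (79.8%) were among these. A change of at least 8-fold, 3 on the log2 scale, was fitted for 80 higher and 91 lower called rows. In these sums, fewer cells with a transcript and less of it per cell cannot be told apart, and so the share of cells is given beside some levels.

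The count of calls depended on depth and batch. When every cell was thinned to 300 UMIs, which matches depth between the ages, 732 rows were called (370 higher, 362 lower), and 1060 when the libraries were thinned to 1 total. With sequencing batch as a covariate 910 rows were called, 356 higher and 554 lower.

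**Figure D2:**
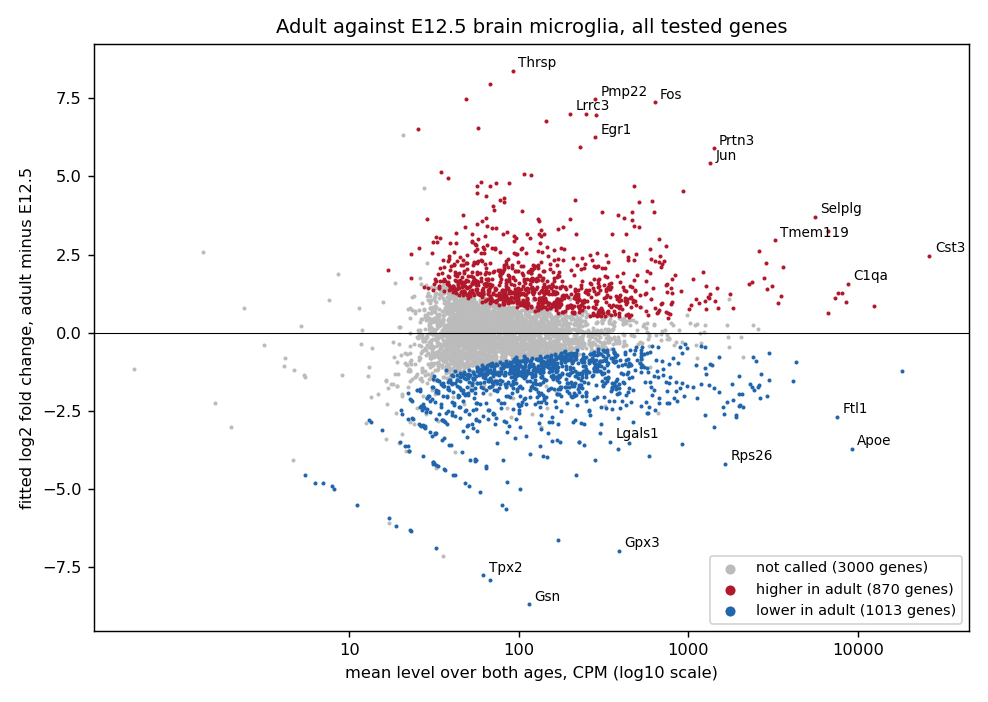
Fitted log2 fold change of adult over E12.5 (vertical axis) against the mean level over both ages in CPM on a log10 scale (horizontal axis) for the 4883 tested gene rows, with 870 rows called higher in red, 1013 called lower in blue and 3000 not called in grey. The diagonal of blue points at low levels holds rows at or near 0 in adult, whose fitted values are set by few counts.

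The largest rises held genes of several kinds. Thrsp, which encodes a nuclear regulator of lipid synthesis, was measured at 131, 242, 125 and 241 CPM in the adult libraries and at 0 in all E12.5 libraries, at least 89.4-fold higher when the E12.5 libraries are given a floor of 3 UMIs in all. It was seen in 5.58% of adult cells thinned to 300 UMIs. Slc1a3, which encodes a glutamate transporter best known from astrocytes, stood at 111, 121, 187 and 121 CPM in adult and at 0 in the E12.5 libraries (at least 67.4-fold higher). It was the one astrocyte marker that was called. Pmp22, which encodes a membrane protein of myelin and other tissues, was at 603, 582, 447 and 604 CPM in the adult libraries and 6.07, 0, 4.28 and 0 CPM in the E12.5 libraries, and its groups lay far apart (log2 fold change 7.47 ± 0.47 (SE), adjusted p = 2.01e-16).

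Lrrc3, a leucine-rich repeat gene, rose to 397 ± 59.7 CPM in adult against 1.99 ± 2.86 CPM at E12.5 (log2 fold change 7.00 ± 0.51, adjusted p = 4.25e-14). Gp9, known as a platelet glycoprotein, was at 251, 352, 239 and 295 CPM in the adult libraries and 0, 0, 4.28 and 8.75 CPM in the E12.5 libraries, a ratio of summed counts of 140.3 (95% interval 46.7 to 691), while the platelet markers Ppbp and Itga2b were at 0. Tspan7, a tetraspanin, rose from 5.98 ± 3.50 to 229 ± 82.3 CPM (log2 fold change 5.05 ± 0.44 (SE), adjusted p = 2.67e-12). Tgm2, which encodes a transglutaminase that crosslinks proteins, rose with a log2 fold change of 4.82 ± 0.76 (adjusted p = 3.59e-06), and Nav3, which encodes a microtubule-binding navigator protein, with 4.80 ± 0.59 (adjusted p = 1.15e-08). The granule proteases Ctsg (log2 fold change 6.98 ± 1.67 (SE), adjusted p = 0.00392), Elane (neutrophil elastase, log2 fold change 5.96 ± 1.14, adjusted p = 7.49e-04) and Prtn3 (log2 fold change 5.90 ± 0.91, adjusted p = 1.05e-04) were among the 15. All 3 remained called without any 1 adult library or plate, with values of 6.25 to 7.42, 4.79 to 6.47 and 5.07 to 6.24.

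Mpo, with a log2 fold change of 3.87 ± 1.02 (adjusted p = 0.00764), did not remain called without adult replicates 1 and 2 (1.57, adjusted p = 0.421). Without E12.5 replicates 1 and 2, Ctsg was at 7.53 (adjusted p = 0.0574). With sequencing batch as a covariate, the calls on 8 of the 15 largest rises were lost, among them Dusp1, described with the immediate early genes. The log2 fold changes of others were 9.50 (adjusted p = 1.00) for Lrrc3, 4.01 (adjusted p = 0.635) for Ctsg, 2.17 (adjusted p = 0.470) for Elane, 3.40 (adjusted p = 0.427) for Tgm2 and 6.21 (adjusted p = 1.00) for Nav3; for Thrsp and Slc1a3 the adjusted p was 1.00. Pmp22, Gp9, Prtn3 and Tspan7 stayed called under that fit. Fos, Egr1, Jun and Dusp1 completed the list of 15 and are described with the immediate early genes.

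The largest falls were led by Gsn, which encodes the actin-severing protein gelsolin. It was at 0 in all adult libraries and at 261, 215, 223 and 219 CPM in the E12.5 libraries, at least 28.0-fold lower in adult. Igf2bp1, which encodes an oncofetal RNA-binding protein, was at 0 in adult and at 131, 157, 129 and 123 CPM at E12.5 (at least 16.7-fold lower). Gpx3, which encodes a secreted glutathione peroxidase, was at 10.1, 11.0, 0 and 0 CPM in the adult libraries and 734, 766, 823 and 779 CPM in the E12.5 libraries. A few UMIs remained in adult, and the ratio of E12.5 to adult counts was 138 (95% interval 38.2 to 1144). Apoc1, a lipoprotein component, was at 2.51 ± 5.03 CPM in adult and 338 ± 72.0 CPM at E12.5, a ratio of 121 (95% interval 21.6 to 4787).

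Cfb, which encodes complement factor B of the alternative pathway, fell with a ratio of E12.5 to adult counts of 65.2 (95% interval 11.6 to 2585). Cyp4f18, an enzyme that breaks down leukotriene B4, had a ratio of 39.8 (95% interval 7.04 to 1579.8), and Ifi27l2a, an interferon-induced gene, a ratio of 31.6 (95% interval 8.67 to 263). Axl, which encodes a receptor kinase for the uptake of dying cells, was at 10.1, 0, 0 and 13.4 CPM in the adult libraries and 180.0, 99.2, 85.7 and 127 CPM in the E12.5 libraries, with no overlap and a ratio of 23.2 (95% interval 6.32 to 193). Nes, an intermediate filament gene best known from neural progenitors, fell from 415 ± 56.3 to 18.7 ± 23.8 CPM (log2 fold change -4.56 ± 0.46, adjusted p = 1.78e-10). Of the 9 rows of neural progenitor markers, 6 were at 0 in adult, among them Sox2, Pax6 and Fabp7, and 1 was at 0 at E12.5. Tuba1c, an alpha-tubulin, fell with a log2 fold change of -4.08 ± 0.38 (adjusted p = 1.21e-10). Tpx2, Birc5, Cdca8, Tacc3 and Spc24, all genes of the mitotic spindle or its checkpoint, made up the rest of the 15.

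**Figure D3:**
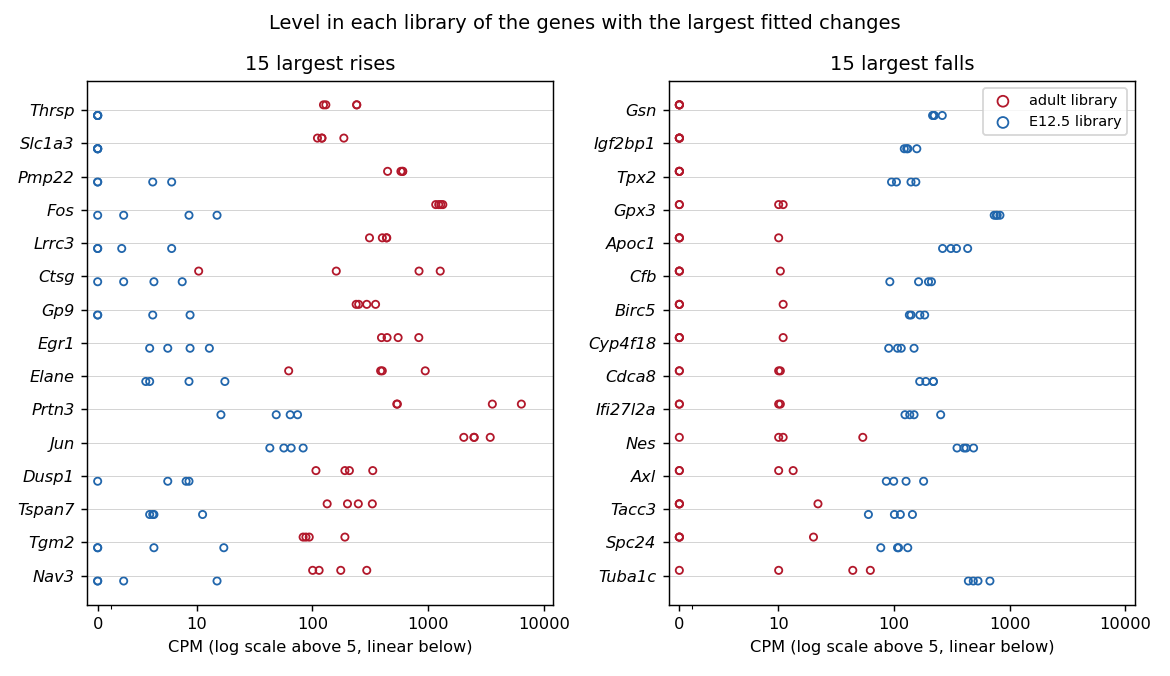
Level in each library, in CPM on an axis that is linear below 5 and logarithmic above, of the 15 largest rises and 15 largest falls; red circles are adult and blue circles E12.5 libraries. Non-overlap was a condition of the choice, and the adult libraries of Ctsg, Elane and Prtn3 are the most spread of the rises.

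Grouped by function, the called genes fell into sets that were mostly higher and sets that were mostly lower in adult. Counts are out of the members tested, and are to be read against 17.8% of all tested rows called higher and 20.7% called lower. Leaving aside the marker lists of other cell types, of which the neutrophil and granulocyte precursor list had 5 of 5 tested members higher, the lists with the largest share higher were homeostatic microglia (26 of 29), immediate early genes (14 of 17), transcription factors of microglia and macrophages (16 of 22), TGF-beta signalling (10 of 14), complement (5 of 7) and circadian and glucocorticoid response (5 of 7). The lists with the largest share lower were mitosis (25 of 28), respiratory chain (56 of 66), chromatin proteins (10 of 13), ribosomal proteins (38 of 53) and S phase (17 of 24).

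**Figure D4:**
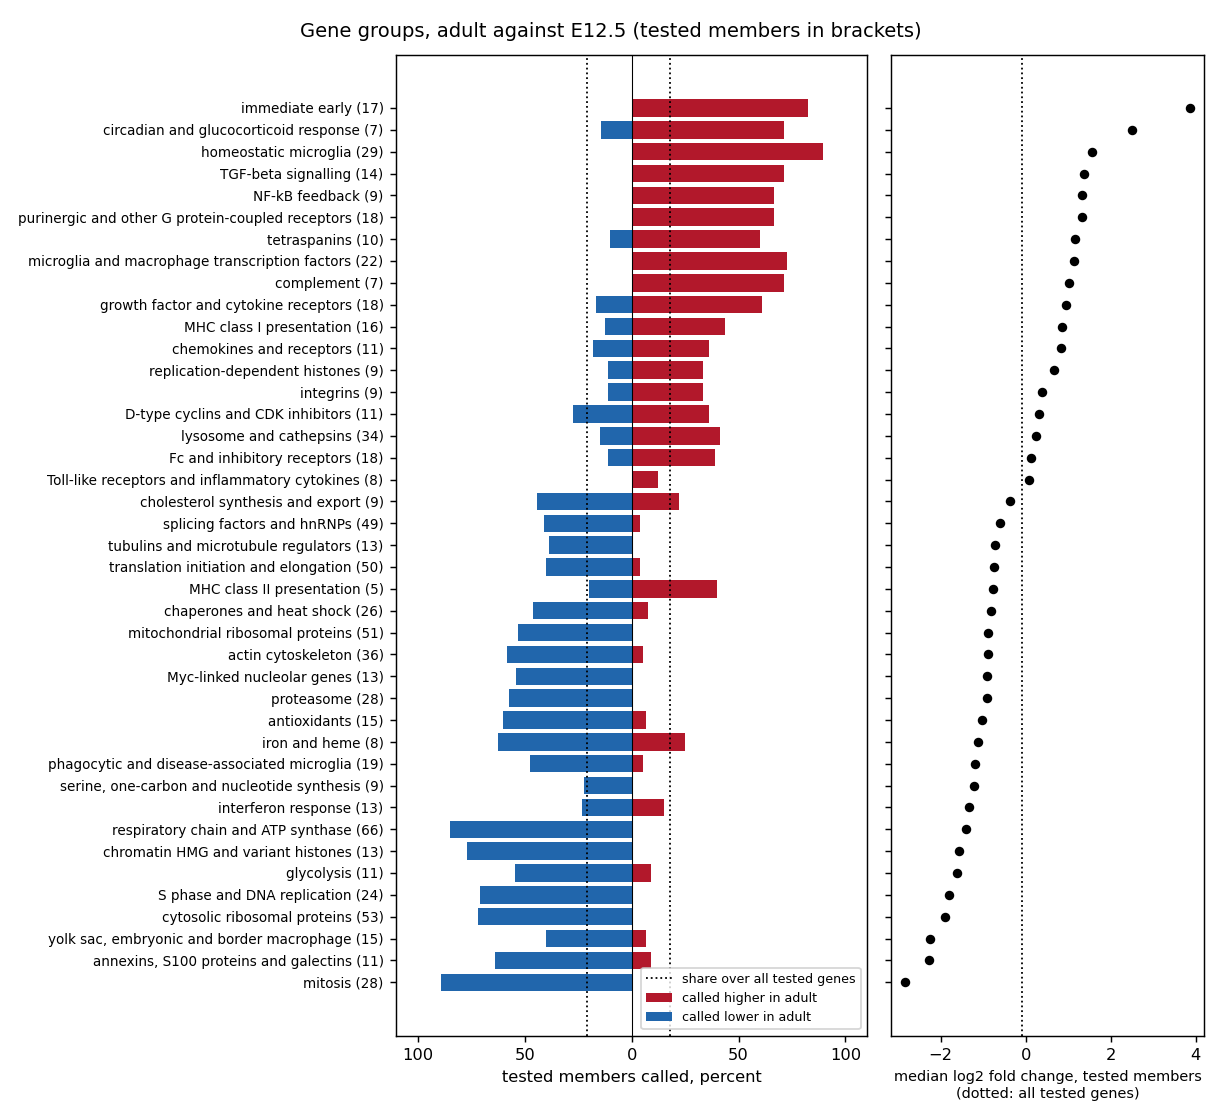
Left, percent of the tested members of each gene list called higher (red, to the right) or lower (blue, to the left) in adult, with dotted lines at the shares over all tested rows, 17.8% and 20.7%; right, the median log2 fold change of the tested members, with the median over all rows dotted. Medians run from 3.87 for immediate early genes to -2.83 for mitosis genes.

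Homeostatic genes, the set by which resting microglia are usually recognised, were higher in adult almost throughout. Of 29 tested members 26 rose and none fell, and the median log2 fold change of the list was 1.55, against -0.07 over all tested rows. Their summed level was 133663 ± 5748 CPM in adult against 35401 ± 1350.4 CPM at E12.5. Tmem119, a membrane protein specific to microglia within the brain, was at 5417, 6055, 6182 and 5324 CPM in the adult libraries and 631, 666, 869.8 and 832 CPM in the E12.5 libraries. Every adult library was above every E12.5 library (log2 fold change 2.96 ± 0.15 (SE), adjusted p = 6.53e-19). It was seen in 78.1% of adult and 16.8% of E12.5 cells at 300 UMIs a cell. Ecscr, a small membrane protein first known from endothelium, rose the most of the list (log2 fold change 4.18 ± 0.24 (SE), adjusted p = 1.15e-17), followed by Selplg, the ligand of P-selectin (log2 fold change 3.72 ± 0.14, adjusted p = 5.52e-24), and the adhesion receptor gene Gpr56 (log2 fold change 3.38 ± 0.22, adjusted p = 2.22e-16). Siglech, a sialic acid-binding lectin, did not pass the test (282 ± 57.3 against 181 ± 85.9 CPM, log2 fold change 0.61 ± 0.46, adjusted p = 0.327).

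Transcription factors of microglia and macrophages moved the same way, with 16 of 22 higher and none lower, and the median log2 fold change of the list was 1.15, against -0.07 over all tested rows. Sall1, a zinc finger factor that maintains microglial identity, stood at 683, 681, 686 and 912 CPM in the adult libraries and 166, 144, 120.0 and 127 CPM in the E12.5 libraries, higher in each adult library and highest in replicate 4 (log2 fold change 2.41 ± 0.23 (SE), adjusted p = 2.25e-11). With sequencing batch as a covariate its estimate turned negative, -1.23 (adjusted p = 0.501). Tgif1, a repressor of TGF-beta targets, rose with 2.29 ± 0.60 (adjusted p = 0.00227), Mef2a with 2.20 ± 0.27 (adjusted p = 1.01e-08) and Ets1 with 1.97 ± 0.33 (adjusted p = 6.24e-06). The call on Tgif1 was lost without adult replicate 3 (1.77 (adjusted p = 0.0560)) and with batch as a covariate (3.60 (adjusted p = 0.0815)). Sfpi1, which encodes PU.1, the factor that all macrophages need, had 902 ± 99.2 against 868 ± 90.8 CPM, a log2 fold change of 0.08 ± 0.16 that did not pass (adjusted p = 0.733). Nfe2l2, the regulator of antioxidant genes, also did not pass (311 ± 91.2 against 307 ± 146 CPM, adjusted p = 0.946).

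Receptors by which microglia sense their surroundings were mostly higher. Of 18 tested G protein-coupled receptors and their regulators, 12 rose and none fell, with a median log2 fold change of 1.32. P2ry12, the ADP receptor that guides microglial processes, was measured at 533, 473, 281 and 295 CPM in the adult libraries and 97.1, 71.1, 68.6 and 65.7 CPM in the E12.5 libraries. No E12.5 library reached an adult one (log2 fold change 2.40 ± 0.31 (SE), adjusted p = 3.13e-08). The beta-adrenergic receptor gene Adrb1 rose with a log2 fold change of 3.15 ± 0.51 (adjusted p = 3.07e-06), and Gpr183, a receptor for oxysterols, with 2.25 ± 0.24 (adjusted p = 5.30e-10). Gpr84, a receptor for fatty acids, did not pass (349.7 ± 161 against 269.8 ± 39.9 CPM, log2 fold change 0.39 ± 0.26, adjusted p = 0.240). Of the genes of this list named here, C5ar1, described with complement, P2ry12 and Adrb1 were no longer called with batch as a covariate, the last 2 at 1.67 (adjusted p = 0.353) for P2ry12 and 2.17 (adjusted p = 0.590) for Adrb1.

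Among growth factor and cytokine receptors 11 of 18 rose and 3 fell (median 0.95). Il6st, the shared signalling chain of the interleukin-6 family, rose with a log2 fold change 2.48 ± 0.23 (SE), adjusted p = 1.32e-11, and Il21r with 2.36 ± 0.28 (adjusted p = 4.43e-09). Csf3r, the receptor for granulocyte colony-stimulating factor and also a member of the granulocyte list, was at 271, 286, 332 and 308 CPM in the adult libraries and 127, 133, 103 and 52.5 CPM in the E12.5 libraries; it was higher in all 4 adult libraries and even between them (log2 fold change 1.51 ± 0.26 (SE), adjusted p = 8.87e-06). Il2rg, the common gamma chain, fell with -1.52 ± 0.55 (adjusted p = 0.0258), a call lost without adult replicate 1 (-1.51 (adjusted p = 0.0585)) and with batch as a covariate (-1.38 (adjusted p = 0.201)). Csf2rb did not pass (115 ± 52.5 against 115 ± 56.9 CPM, adjusted p = 0.905).

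TGF-beta signalling, on which the microglial programme depends, had 10 of 14 tested members higher and none lower (median 1.37). The receptor gene Tgfbr2 rose from 110.3 ± 76.1 to 359 ± 50.7 CPM (log2 fold change 1.65 ± 0.45 (SE), adjusted p = 0.00839). The signal mediator Smad1 rose with 2.03 ± 0.60 (adjusted p = 0.00673), and the feedback genes Pmepa1 and Skil with 1.95 ± 0.17 (adjusted p = 3.93e-12) and 1.68 ± 0.34 (adjusted p = 1.00e-04). Lrrc33, whose product holds latent TGF-beta 1 on the microglial surface, did not pass (279 ± 72.5 against 319 ± 33.7 CPM, log2 fold change -0.15 ± 0.19, adjusted p = 0.564). These 4 calls were not kept with batch as a covariate, where the log2 fold changes were 1.19 (adjusted p = 0.143) for Tgfbr2, 2.22 (adjusted p = 0.189) for Smad1, 1.36 (adjusted p = 0.0861) for Pmepa1 and 2.63 (adjusted p = 0.0662) for Skil. Smad1 was also lost without adult replicate 2 (1.53 (adjusted p = 0.0889)).

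Of 18 Fc and inhibitory receptors 7 rose and 2 fell (median 0.14). Lag3, an inhibitory receptor better known from T cells, was measured at 583, 857, 675 and 751 CPM in the adult libraries and 60.7, 46.8, 38.6 and 65.7 CPM in the E12.5 libraries, and Fcgr2b, the inhibitory Fc receptor, at 201, 275, 270.1 and 228 CPM in the adult libraries and 20.2, 31.8, 12.9 and 8.75 CPM in the E12.5 libraries. Every adult library was above every E12.5 library for both, with log2 fold changes of 3.78 ± 0.25 (adjusted p = 7.65e-16) and 3.57 ± 0.33 (adjusted p = 7.53e-12). The activating receptor genes Fcgr1 (627 ± 96.8 against 665 ± 165 CPM, adjusted p = 0.834) and Fcgr3 (375 ± 29.6 against 689 ± 379 CPM, adjusted p = 0.0586) did not pass. Cd52, a small surface glycoprotein of leukocytes, fell from 2791 ± 329 to 447 ± 139.8 CPM (log2 fold change -2.62 ± 0.18 (SE), adjusted p = 1.63e-15). Without the E12.5 plate of replicates 3 and 4, Fcgr3 was called lower (-1.34 (adjusted p = 4.22e-06)).

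Tetraspanins, membrane organisers, had 6 of 10 higher and 1 lower (median 1.15). Besides Tspan7, Cd37 rose with 2.33 ± 0.26 (adjusted p = 1.52e-09) and Cd81 with 1.76 ± 0.15 (adjusted p = 1.68e-12), and the one that fell was Cd9. Cd63, a tetraspanin of lysosomes, did not pass (323 ± 81.7 against 371 ± 48.9 CPM, adjusted p = 0.519). Of 9 integrin and adhesion genes 3 rose and 1 fell (median 0.38): Itgb2, the CD18 chain, with 1.03 ± 0.23 (adjusted p = 3.92e-04), Fermt3, an integrin activator, with 0.90 ± 0.26 (adjusted p = 0.00563) and Itgb5 with 0.80 ± 0.14 (adjusted p = 1.70e-05). Itgb1 did not pass (404 ± 73.1 against 420.3 ± 171 CPM). With batch as a covariate 2 of these were not called, at 1.03 (adjusted p = 0.125) for Itgb2 and 0.68 (adjusted p = 0.339) for Fermt3. Without adult replicates 1 and 2 Itgb2 was at 0.63 (adjusted p = 0.108), and without replicates 3 and 4 Fermt3 was at 0.53 (adjusted p = 0.242).

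Of the complement list, which holds C1q, receptors and other components, 5 of 7 tested members were higher and none lower (median 1.03). Cfb, a complement gene outside the list, fell, as described above. C1qa, a chain of the recognition molecule C1q, was measured at 12544, 12802, 12874 and 14176 CPM in the adult libraries and 3593, 3879, 5069 and 5266 CPM in the E12.5 libraries (log2 fold change 1.57 ± 0.14 (SE), adjusted p = 4.52e-12). C1qb and C1qc, the other chains, rose with 0.97 ± 0.11 (adjusted p = 1.27e-09) and 1.27 ± 0.11 (adjusted p = 2.62e-12), and neither overlapped between ages. The C5a receptor gene C5ar1 rose with 1.43 ± 0.53 (adjusted p = 0.0289), a call lost with batch as a covariate (2.26 (adjusted p = 0.0546)) and without adult replicates 3 and 4 (0.89 (adjusted p = 0.376)). Cfp, which encodes properdin, was at 0 in adult and 10.1, 5.62, 12.9 and 8.75 CPM at E12.5 and did not pass (adjusted p = 0.0714).

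Lysosomal genes split. Of 34 tested, 14 rose and 5 fell (median 0.25). Cst3, which encodes the secreted cathepsin inhibitor cystatin C, was measured at 48505, 49317, 36729.9 and 43883 CPM in the adult libraries and 7786, 7078, 9066 and 8881 CPM in the E12.5 libraries (log2 fold change 2.46 ± 0.12 (SE), adjusted p = 2.13e-19). Laptm4a, a lysosomal membrane protein gene, rose with 2.08 ± 0.35 (adjusted p = 4.60e-05). Cstb, which encodes the intracellular cathepsin inhibitor cystatin B, fell with -2.18 ± 0.23 (adjusted p = 5.44e-10), the opposite direction to Cst3. Grn, which encodes progranulin (2674 ± 145 against 2506 ± 191 CPM, adjusted p = 0.457), and Lamp1 (2594 ± 118 against 2228 ± 239 CPM, adjusted p = 0.152) did not pass. Lamp1 was called higher in thinned cells (0.39 (adjusted p = 0.0261)).

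Antigen presentation genes were called in both directions, with more class I members higher than lower. Of 16 class I genes 7 rose and 2 fell (median 0.86). H2-K1, a class I heavy chain gene, rose from 159.7 ± 26.9 to 309 ± 47.3 CPM (log2 fold change 1.00 ± 0.21 (SE), adjusted p = 2.44e-04). H2-M3 rose with 1.92 ± 0.64 (adjusted p = 0.0152), and Pdia3 and Tapbp, which load peptides, with 1.27 ± 0.18 and 1.26 ± 0.21 (adjusted p = 4.46e-07 and 7.54e-06), while Psme2, a proteasome activator, fell with -1.15 ± 0.34 (adjusted p = 0.00700). Of 5 class II genes the peptide-exchange genes H2-DMa (1.02 ± 0.24, adjusted p = 6.42e-04) and the row of H2-DMb1 and H2-DMb2 rose and Ifi30, a lysosomal thiol reductase, fell (-1.57 ± 0.20, adjusted p = 1.90e-08). Cd74, the invariant chain, did not pass (57.7 ± 22.7 against 113 ± 39.4 CPM, log2 fold change -0.91 ± 0.43, adjusted p = 0.0938). With batch as a covariate the changes were 0.89 (adjusted p = 0.0775) for H2-K1, -0.93 (adjusted p = 0.216) for Psme2, 1.19 (adjusted p = 0.158) for H2-DMa and -1.94 (adjusted p = 0.0135) for Cd74, and H2-M3 was at 1.74 (adjusted p = 0.0702) without adult replicate 2.

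Interferon response genes had 2 of 13 higher and 3 lower (median -1.33). Oasl2 fell with a ratio of E12.5 to adult counts of 10.9 (95% interval 1.86 to 440.3) and Ifitm2 with a log2 fold change of -2.21 ± 0.59 (adjusted p = 0.00297), while Irf9, part of the factor that carries the interferon signal, rose with 1.06 ± 0.37 (adjusted p = 0.0214) and Lgals3bp with 1.02 ± 0.31 (adjusted p = 0.0102). Apart from Ifi27l2a, each of these calls was lost when some libraries were left out: without adult replicate 2, Oasl2 had an adjusted p of 0.0721 and Irf9 was at 0.87 (adjusted p = 0.108), and without adult replicates 1 and 2 Ifitm2 was at -1.68 (adjusted p = 0.0743) and Lgals3bp at 0.89 (adjusted p = 0.0939). Bst2 (269 ± 60.9 against 389 ± 56.0 CPM) did not pass. With batch as a covariate Bst2 was called lower (-1.48 (adjusted p = 9.94e-05)).

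Of 8 genes of Toll-like receptor signalling and inflammatory cytokines, Cd14 was the one called. This co-receptor for lipopolysaccharide was measured at 593, 736, 1257 and 925 CPM in the adult libraries and 87.0, 88.0, 85.7 and 65.7 CPM in the E12.5 libraries (log2 fold change 3.43 ± 0.26 (SE), adjusted p = 2.49e-13), and each adult library exceeded every E12.5 library. Ly86 (377 ± 36.1 against 819.9 ± 588 CPM, adjusted p = 0.179) and Myd88 (131 ± 31.4 against 176 ± 58.0 CPM, adjusted p = 0.205) did not pass. Of 11 chemokine and chemokine receptor rows 4 rose and 2 fell (median 0.83). Cxcl16, a chemokine with a transmembrane form, rose with 2.01 ± 0.42 (adjusted p = 1.92e-04). Pf4, platelet factor 4 and also a marker of border macrophages, fell with a ratio of E12.5 to adult counts of 20.5 (95% interval 5.58 to 171), and Cxcr2 with a ratio of 7.64 (95% interval 2.03 to 64.4). The row of Ccl3 did not pass (log2 fold change -0.40 ± 0.39, adjusted p = 0.452). The calls on Cxcl16, Pf4 and Cxcr2 were lost with batch as a covariate, at 0.90 (adjusted p = 0.532) for Cxcl16 and with an adjusted p of 0.0763 and an adjusted p of 0.286 for the others. Without adult replicates 3 and 4 Pf4 had an adjusted p of 0.0645, and without replicates 1 and 2 Cxcr2 had an adjusted p of 0.0647. Ly86 and the Ccl3 row were called lower without E12.5 replicates 3 and 4, at -1.71 (adjusted p = 0.0393) and -0.79 (adjusted p = 0.0325).

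Immediate early genes, which are switched on within minutes by growth factors, stress or tissue handling and mostly encode AP-1 and Egr transcription factors and their feedback phosphatases, had 14 of 17 tested members higher and none lower, with a median log2 fold change of 3.87. Fos, an AP-1 subunit, was measured at 1236, 1165, 1288 and 1341 CPM in the adult libraries and 2.02, 15.0, 8.57 and 0 CPM in the E12.5 libraries. Egr1, a zinc finger factor, was at 442, 396, 551 and 832 CPM in the adult libraries and 4.05, 5.62, 12.9 and 8.75 CPM in the E12.5 libraries. Jun, the partner of Fos, was at 2493, 2505, 2037 and 3447 CPM in the adult libraries and 56.6, 65.5, 42.8 and 83.2 CPM in the E12.5 libraries. The adult libraries lay far above every E12.5 library for all 3, with log2 fold changes of 7.37 ± 0.34 (adjusted p = 1.59e-17), 6.26 ± 0.34 (adjusted p = 2.50e-18) and 5.42 ± 0.31 (adjusted p = 1.00e-12). Fosb was at 0 in the E12.5 libraries and at 60.3, 54.9, 20.8 and 67.1 CPM in adult (at least 24.8-fold higher). Dusp1, a phosphatase that switches off MAP kinases, was at 191, 209, 332 and 107 CPM in the adult libraries and 8.09, 5.62, 8.57 and 0 CPM in the E12.5 libraries (log2 fold change 5.07 ± 0.44 (SE), adjusted p = 2.56e-12). With batch as a covariate Fos, Egr1 and Jun were still called and Fosb and Dusp1 were not, with an adjusted p of 0.185 for Fosb and 4.69 (adjusted p = 0.206) for Dusp1. Klf2 (106 ± 111 against 126 ± 28.2 CPM, log2 fold change -0.32 ± 0.44, adjusted p = 0.598) and Myc (73.6 ± 27.6 against 118 ± 21.5 CPM, log2 fold change -0.63 ± 0.38, adjusted p = 0.192) did not pass. Without adult replicate 4 Klf2 was called lower (-1.23 (adjusted p = 0.0227)).

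Most adult cells held such transcripts. With each cell thinned to 300 UMIs, 79.1%, 74.7%, 77.9% and 81.0% of the cells of adult replicates 1 to 4 held at least 2 UMIs of immediate early genes (78.2% ± 2.64, SD, n = 4). In the E12.5 libraries the shares were 2.70%, 5.88%, 4.65% and 1.15% (3.60% ± 2.09, SD, n = 4). Without thinning the shares were 92.2% in adult and 43.6% at E12.5. The E18.5 brain, sorted by the gate used in adult and sequenced in the adult batch, lay between with 50.6%. How long tissue was dissociated was not given for either age, and its part in the difference was not tested.

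**Figure D5:**
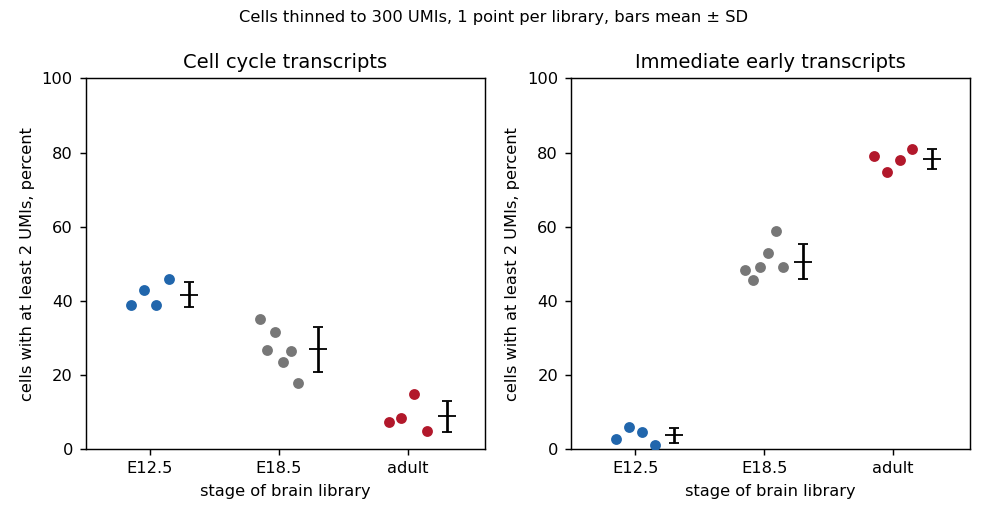
Percent of cells in each library, thinned to 300 UMIs a cell, with at least 2 UMIs of immediate early genes and of cell cycle genes, 1 point per library, with bars for mean and SD, for E12.5, E18.5 and adult brain. Adult libraries sit between 74.7% and 81.0% for immediate early genes and between 4.76% and 14.7% for cell cycle genes, and E12.5 libraries between 1.15% and 5.88% and between 38.9% and 46.0%.

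Feedback genes of NF-kB, the inflammatory transcription factor, had 6 of 9 higher and none lower (median 1.33). Nfkbia, which encodes the inhibitor that NF-kB itself induces, rose from 73.6 ± 15.3 to 633 ± 165 CPM (log2 fold change 3.15 ± 0.28 (SE), adjusted p = 5.79e-12), and Relb, a subunit, with 2.58 ± 0.63 (adjusted p = 0.00105). Mcl1 (229 ± 107 against 244 ± 125 CPM) and Cdkn1a (50.8 ± 22.4 against 43.0 ± 1.90 CPM) did not pass. Of 7 circadian and glucocorticoid response genes 5 rose and 1 fell (median 2.49). Sgk1, a kinase induced by glucocorticoids, rose with 3.62 ± 0.25 (adjusted p = 1.63e-15), Ddit4, an inhibitor of mTOR induced by stress and glucocorticoids, with 3.68 ± 0.57 (adjusted p = 1.47e-06), the clock gene Per1 with 2.49 ± 0.53 (adjusted p = 2.11e-04) and the receptor gene Nr3c1 with 1.83 ± 0.28 (adjusted p = 1.34e-06). Fkbp5, another glucocorticoid target, fell with -1.06 ± 0.43 (adjusted p = 0.0480). That call was lost in 13 of the 19 alternatives that tested it, among them RLE scaling (-1.01 (adjusted p = 0.0615)), and with batch as a covariate the estimate turned to 0.49 (adjusted p = 0.727). Batch as a covariate gave 1.08 (adjusted p = 0.557) for Relb, 3.14 (adjusted p = 0.142) for Sgk1 and 2.32 (adjusted p = 0.412) for Ddit4.

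The promoter windows of these genes are shown because the 14 called members moved together. Windows run from 250 bases before to 50 bases after the RefSeq start (build GRCm38.p6, printed 5' to 3' on the gene's strand), and capitals mark matches of the motifs searched. Those were the cAMP response element TGACGTCA, the AP-1 heptamer TGANTCA, the TATA box TATAAA, the CCAAT box CCAAT, the GC box GGGCGG, the E2F sites TTTCCCGC and TTTGGCGC, the PU.1 core AGAGGAAGT and the serum response element, each on both strands; matches may overlap one another. The Fos window is chr12:85473640-85473939, plus strand, the Jun window chr4:95052173-95052472, minus strand and the Dusp1 window chr17:26508423-26508722, minus strand.
Fos: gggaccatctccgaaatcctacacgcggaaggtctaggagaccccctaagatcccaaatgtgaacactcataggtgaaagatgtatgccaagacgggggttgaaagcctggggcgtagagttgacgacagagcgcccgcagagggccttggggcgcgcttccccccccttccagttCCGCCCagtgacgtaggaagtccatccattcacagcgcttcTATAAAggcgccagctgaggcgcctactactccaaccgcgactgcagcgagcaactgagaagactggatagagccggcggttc
Jun: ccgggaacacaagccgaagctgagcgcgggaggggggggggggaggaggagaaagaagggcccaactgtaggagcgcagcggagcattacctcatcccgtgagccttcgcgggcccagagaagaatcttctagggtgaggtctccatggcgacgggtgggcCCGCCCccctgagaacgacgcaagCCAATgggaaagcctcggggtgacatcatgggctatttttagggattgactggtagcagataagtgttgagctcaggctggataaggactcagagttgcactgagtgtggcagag
Dusp1: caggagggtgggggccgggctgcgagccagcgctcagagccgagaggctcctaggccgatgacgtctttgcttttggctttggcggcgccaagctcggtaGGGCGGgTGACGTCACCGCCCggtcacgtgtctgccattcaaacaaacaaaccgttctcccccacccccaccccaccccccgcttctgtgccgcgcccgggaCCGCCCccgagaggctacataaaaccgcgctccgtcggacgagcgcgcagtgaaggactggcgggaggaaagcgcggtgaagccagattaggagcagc

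Fos held a TATA box 33 bases before the start and a GC box 74 bases before it, Jun a CCAAT box at 65 and a GC box at 89, and Dusp1 a cAMP response element at 143 with GC boxes at 150, 135 and 48. The Fosb window held GC boxes alone. Of the 14 called members 12 had a window. The cAMP response element was in 16.7% of them (2 windows) against 1.79% of all 32851 windows. The serum response element was in 8.33% (1 window) against 1.63% and the TATA box in 16.7% against 13.6%. The CCAAT box was in 58.3% against 37.4%, the GC box in 83.3% against 35.7% and the AP-1 heptamer in 0% against 7.81%. The GC box was also in 63.6% of the windows of called S phase genes and 81.0% of those of called mitosis genes. The CCAAT box was in 54.5% and 90.5% of these, so neither box was particular to immediate early genes. A match describes the letters of the window and is not a measured site. An absence covers only the exact letters within these 12 windows, and sites with other letters or farther away were not searched.

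Genes of division were lower in adult. Of 24 genes of S phase and DNA replication 17 fell and none rose (median -1.81), and of 28 mitosis genes 25 fell and none rose (median -2.83). Tpx2, which builds the spindle, was at 0 in the adult libraries and at 95.1, 105, 154 and 140.1 CPM at E12.5 (at least 13.8-fold lower). Birc5, which encodes survivin of the chromosomal passenger complex, was at 0, 11.0, 0 and 0 CPM in the adult libraries and 136, 140.4, 167 and 184 CPM in the E12.5 libraries. The ratio of E12.5 to adult counts was 54.1 (95% interval 9.60 to 2145), and that of Cdca8, a partner of Birc5 in the complex, was 34.3 (95% interval 9.41 to 285). The condensin gene Ncapd2 had a ratio of 35.2 (95% interval 6.21 to 1398), the kinesin gene Kif22 26.2 (95% interval 4.60 to 1044), the spindle gene Tacc3 20.6 (95% interval 5.62 to 172) and the kinetochore gene Spc24 18.2 (95% interval 4.95 to 152). Stmn1, which destabilises microtubules, did not pass (16.2 ± 25.5 against 24.0 ± 2.56 CPM, adjusted p = 0.512). Cenpf did not pass with all libraries (20.1, 0, 208 and 13.4 CPM in adult) and was called lower without adult replicate 3 (-2.76 (adjusted p = 0.00125)).

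In S phase, Mcm2, a subunit of the replicative helicase, was measured at 20.1, 33.0, 10.4 and 13.4 CPM in the adult libraries and 121, 153, 150.0 and 149 CPM in the E12.5 libraries (log2 fold change -2.82 ± 0.49 (SE), adjusted p = 1.18e-05), without overlap. Tk1, thymidine kinase, fell with -2.93 ± 0.61 (adjusted p = 1.81e-04), and Cdt1, which loads the helicase, with -2.49 ± 0.54 (adjusted p = 2.67e-04). Hells, a chromatin remodeller of dividing cells, had a ratio of E12.5 to adult counts of 16.0 (95% interval 2.77 to 641) and Clspn, a checkpoint gene, a ratio of 6.14 (95% interval 2.02 to 30.4). Mcm6 was at 30.2, 33.0, 364 and 40.2 CPM in adult and was called lower once replicate 3 was left out (-2.32 (adjusted p = 9.33e-05)). The calls on both were lost with batch as a covariate, with an adjusted p of 0.0734 for Hells and an adjusted p of 0.133 for Clspn, and without adult replicates 3 and 4, with an adjusted p of 0.0590 and an adjusted p of 0.103.

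By cell, 7.36%, 8.23%, 14.7% and 4.76% of the cells of adult replicates 1 to 4 held at least 2 UMIs of S phase or mitosis genes at 300 UMIs a cell (8.77% ± 4.23, SD, n = 4). The E12.5 libraries had 38.9%, 42.8%, 39.0% and 46.0% (41.7% ± 3.40, SD, n = 4). Without thinning the shares were 22.8% and 89.3%. Adult replicate 3, the highest adult library, held the raised Mcm6 and Cenpf counts, and without Cdk1, Cenpf, Mcm6 and Ube2c the means were 5.68% ± 1.76 and 38.7% ± 5.18. The E18.5 brain libraries averaged 26.8%.

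Windows of S phase genes are shown for the E2F letters, since E2F factors drive this set in dividing cells. The Hells window is chr19:38930740-38931039, plus strand, the Mcm2 window chr6:88898731-88899030, minus strand and the Cdt1 window chr8:122567765-122568064, plus strand, with the same build, orientation and capitals as above.
Hells: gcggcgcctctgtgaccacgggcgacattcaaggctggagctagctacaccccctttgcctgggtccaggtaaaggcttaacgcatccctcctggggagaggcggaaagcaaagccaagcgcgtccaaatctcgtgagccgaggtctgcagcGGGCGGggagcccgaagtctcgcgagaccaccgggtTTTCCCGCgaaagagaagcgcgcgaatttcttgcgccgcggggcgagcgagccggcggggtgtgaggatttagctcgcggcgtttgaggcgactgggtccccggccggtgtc
Mcm2: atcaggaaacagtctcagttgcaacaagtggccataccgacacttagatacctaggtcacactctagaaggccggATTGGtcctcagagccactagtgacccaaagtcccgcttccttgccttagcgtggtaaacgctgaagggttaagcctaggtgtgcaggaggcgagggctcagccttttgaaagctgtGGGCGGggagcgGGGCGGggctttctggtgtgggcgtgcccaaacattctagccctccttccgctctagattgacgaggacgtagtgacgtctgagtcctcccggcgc
Cdt1: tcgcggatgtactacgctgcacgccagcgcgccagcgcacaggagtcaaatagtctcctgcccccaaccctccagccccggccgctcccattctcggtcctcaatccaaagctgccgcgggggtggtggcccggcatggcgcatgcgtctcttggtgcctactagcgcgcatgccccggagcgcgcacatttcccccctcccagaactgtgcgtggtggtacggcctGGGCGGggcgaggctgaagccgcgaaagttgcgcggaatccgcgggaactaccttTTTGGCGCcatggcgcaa

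Hells held the E2F letters TTTCCCGC 62 bases before the start and Cdt1 TTTGGCGC 32 bases after it, while Mcm2 held a CCAAT box at 175 and GC boxes at 58 and 46 bases before the start, and the Tk1 window a GC box alone. Of the 17 called S phase members 15 had a window, 22 windows in all; TTTCCCGC was in 9.09% of these and TTTGGCGC in 13.6%, against 1.07% and 0.514% of all windows. Of the 25 called mitosis members 21 had a window, and the CCAAT box was in 90.5% of these against 37.4% of all.

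Regulators of cell cycle entry moved in both directions. Of 11 tested, 4 rose and 3 fell (median 0.31). E2f1, the factor that starts S phase, was at 0 in adult and at 44.5, 35.6, 51.4 and 52.5 CPM at E12.5 (at least 5.25-fold lower), and the kinase gene Cdk4 fell with -2.41 ± 0.27 (adjusted p = 1.37e-09). Btg2, an antiproliferative gene that is also immediate early, was at 955, 1044, 1340.4 and 1355 CPM in the adult libraries and 95.1, 99.2, 64.3 and 61.3 CPM in the E12.5 libraries, higher in every adult library (log2 fold change 3.85 ± 0.23 (SE), adjusted p = 4.17e-17). Ccng2, a cyclin of resting cells, rose with 2.51 ± 0.40 (adjusted p = 2.03e-06), and Rb1, which restrains E2F, with 2.41 ± 0.51 (adjusted p = 2.07e-04; with batch as a covariate, 2.22 (adjusted p = 0.155)). Ccnd1 did not pass (66.1 ± 41.8 against 45.5 ± 11.0 CPM, adjusted p = 0.261). Over all alternatives the median of this list ranged from -0.52 to 1.11.

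Histone and chromatin genes differed by kind. Of 9 replication-dependent histone rows 3 rose and 1 fell (median 0.68): Hist1h2ac rose from 8.11 ± 6.63 to 113 ± 65.6 CPM (log2 fold change 3.56 ± 0.55 (SE), adjusted p = 1.23e-06) and the linker histone gene Hist1h1c with 1.39 ± 0.24 (adjusted p = 9.24e-06). Hist1h1b fell with -1.36 ± 0.42 (adjusted p = 0.0147), a call lost without adult replicate 3 (-1.14 (adjusted p = 0.0614)) and with batch as a covariate (-1.66 (adjusted p = 0.149)). These rows are read through polyadenylated transcripts only. Of 13 high mobility group and variant histone rows 10 fell and none rose (median -1.56). Hmgb2 fell from 235 ± 40.5 to 37.0 ± 25.0 CPM (log2 fold change -2.65 ± 0.35 (SE), adjusted p = 5.37e-08), H2afx with -2.91 ± 0.31 (adjusted p = 3.44e-10), and the nucleolin gene Ncl with -1.86 ± 0.16 (adjusted p = 2.56e-12).

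Genes of phagocytic and disease-associated microglia, a set recognised in ageing and disease and also in early postnatal brain, had more members lower than higher in adult. Of 19 tested 1 rose (Trem2, the lipid receptor on which the disease-associated state depends) and 9 fell, with a median of -1.20. Apoe, the apolipoprotein that carries lipid, was measured at 874, 1736, 519.5 and 2039 CPM in the adult libraries and 16158, 15649, 18904 and 17911 CPM in the E12.5 libraries. The groups were far apart (log2 fold change -3.72 ± 0.31 (SE), adjusted p = 1.42e-07). The E18.5 level, 19429 ± 2169 CPM (SD, n = 6), lay on the E12.5 side and was not between the 2 means. Lgals1, which encodes galectin-1, was at 20.1, 87.9, 62.3 and 53.6 CPM in the adult libraries and 679.7, 679, 677 and 508 CPM in the E12.5 libraries (log2 fold change -3.48 ± 0.27 (SE), adjusted p = 8.96e-14). Plin2, which coats lipid droplets, fell with -2.86 ± 0.49 (adjusted p = 4.44e-05). Vim did not pass (694, 98.9, 20.8 and 26.8 CPM in adult) and was called lower without adult replicate 1 (-2.73 (adjusted p = 7.15e-07)).

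Of 15 genes of yolk sac, embryonic and border macrophages 6 fell and 1 rose, the transcription factor gene Maf (median -2.25, or -1.35 with members at 0 in adult set to their bound). Ms4a7, a membrane protein of border macrophages, was at 0 in adult and at 28.3, 31.8, 47.1 and 30.6 CPM at E12.5 (at least 3.96-fold lower). Fcna, which encodes ficolin A, was at 0 in adult and 18.2, 20.6, 12.9 and 4.38 CPM at E12.5 (at least 1.94-fold lower). Dab2, an endocytic adaptor, fell with -2.25 ± 0.48 (adjusted p = 3.19e-04; in thinned cells -1.52 (adjusted p = 0.0920)). Fcna was no longer called without E12.5 replicates 1 and 2 (an adjusted p of 0.0891), without either adult plate, or with batch as a covariate (an adjusted p of 0.203). The row of Lyz1 and Lyz2, lysozyme, did not pass (log2 fold change -2.42 ± 1.29, adjusted p = 0.156). Igf2bp1, described above, and the row of Igf2bp3 fell out of 3 oncofetal rows, and the row of H19 did not pass.

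Annexins, S100 proteins and galectins, calcium- and sugar-binding proteins of membranes and the extracellular space, had 7 of 11 lower and 1 higher, Anxa3 (median -2.28). Anxa5, which binds exposed phosphatidylserine, fell from 241 ± 30.2 to 28.5 ± 9.79 CPM (log2 fold change -3.07 ± 0.35 (SE), adjusted p = 2.32e-09), and Anxa2 with -2.71 ± 0.44 (adjusted p = 3.49e-06). S100a10, the partner of annexin A2, had a ratio of E12.5 to adult counts of 10.2 (95% interval 2.73 to 85.5). Lgals9 was at 669.6, 605, 98.5 and 96.3 CPM at E12.5, uneven between plates (log2 fold change -2.87 ± 1.02 (SE), adjusted p = 0.0376). Its call was lost in 12 of the 21 alternatives, among them without E12.5 replicates 1 and 2 (-1.06 (adjusted p = 0.515)). Without adult replicates 1 and 2, S100a10 had an adjusted p of 0.0665. Anxa7 did not pass (55.7 ± 36.6 against 87.8 ± 8.86 CPM).

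Iron and heme genes had 2 of 8 higher and 5 lower (median -1.12). Ftl1, the ferritin light chain that stores iron, was measured at 1980.0, 2099, 1901 and 1998 CPM in the adult libraries and 10647, 10198, 15241 and 15989 CPM in the E12.5 libraries, lower in every adult library (log2 fold change -2.69 ± 0.15 (SE), adjusted p = 5.19e-18). Fth1, the heavy chain, fell with -1.33 ± 0.14 (adjusted p = 6.63e-10), and Hmox1, which breaks down heme, with -2.26 ± 0.47 (adjusted p = 2.14e-04). The exporter gene Slc40a1 rose with 2.68 ± 0.53 (adjusted p = 8.06e-05) and Trf, transferrin, with 1.64 ± 0.45 (adjusted p = 0.0102). With batch as a covariate Slc40a1 was at 2.14 (adjusted p = 0.190), and without E12.5 replicates 3 and 4 Trf was at 1.13 (adjusted p = 0.0749).

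Antioxidant enzymes had 9 of 15 lower and 1 higher (median -1.02). Gpx1, glutathione peroxidase 1, fell from 3376 ± 147 to 675 ± 199 CPM (log2 fold change -2.30 ± 0.17 (SE), adjusted p = 1.49e-14), Sod1 with -1.61 ± 0.22 and Txn1 with -1.61 ± 0.29 (adjusted p = 8.04e-08 and 2.10e-05). Gstm1, a glutathione transferase, rose with 3.03 ± 0.72 (adjusted p = 0.00347), a call lost without E12.5 replicates 1 and 2 (2.48 (adjusted p = 0.0713)) and with batch as a covariate (2.77 (adjusted p = 0.174)). Of 9 genes of cholesterol and fatty acid handling 2 rose and 4 fell (median -0.38). Mylip, which degrades the LDL receptor, rose with 2.48 ± 0.29 (adjusted p = 6.89e-09; with batch as a covariate 0.76 (adjusted p = 0.558)), and Scd2, a fatty acid desaturase, fell with -2.09 ± 0.40 (adjusted p = 4.35e-05; in thinned cells -1.11 (adjusted p = 0.0965)). The exporter gene Abca1 did not pass (log2 fold change 0.82 ± 0.35, adjusted p = 0.0609), but was called higher with RLE scaling (0.87 (adjusted p = 0.0477)) and without adult replicate 2 (1.06 (adjusted p = 0.0188)).

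Actin genes were mostly lower, 21 of 36 against 2 higher (median -0.89). Lsp1, a leukocyte actin-binding protein gene, fell from 826 ± 57.8 to 71.0 ± 26.6 CPM (log2 fold change -3.54 ± 0.22 (SE), adjusted p = 2.21e-16), and Tmsb10, which binds actin monomers, with -3.20 ± 0.34 (adjusted p = 2.54e-09). Tpm4 and Cnn2, which bind filaments, fell with -2.93 ± 0.48 and -2.92 ± 0.36 (adjusted p = 3.58e-06 and 2.22e-07). The filament-bundling gene Fscn1 and the row of Marcks were the ones that rose. Arpc2, of the branching complex Arp2/3, did not pass (694 ± 108 against 806 ± 68.2 CPM, adjusted p = 0.370). Tubulins and microtubule regulators had 5 of 13 lower and none higher (median -0.72), with Tubb5 at 362, 363, 426 and 308 CPM in the adult libraries and 1424, 1434, 1448 and 1786 CPM in the E12.5 libraries (log2 fold change -2.03 ± 0.17 (SE), adjusted p = 4.25e-13). Tuba1a did not pass (257 ± 50.2 against 275 ± 121 CPM, adjusted p = 0.915).

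Glycolytic genes had 6 of 11 lower and 1 higher (median -1.60). Ldha, the lactate dehydrogenase chain of active glycolysis, fell from 993 ± 56.8 to 162 ± 41.7 CPM (log2 fold change -2.58 ± 0.19 (SE), adjusted p = 3.16e-14), while Ldhb, the other main chain, was the one that rose. Pkm2, pyruvate kinase, fell with -2.26 ± 0.21 (adjusted p = 6.94e-12) and Gpi1 with -2.18 ± 0.24 (adjusted p = 9.77e-10). Hk2, the hexokinase that starts the pathway, did not pass (200.5 ± 20.3 against 186 ± 75.7 CPM, adjusted p = 0.834). Of 66 nuclear genes of the respiratory chain and ATP synthase 56 fell and none rose (median -1.41). Their share of UMIs was 0.999% in adult and 2.73% at E12.5 at 300 UMIs a cell. Cox6b1, a subunit of cytochrome c oxidase, fell with -2.73 ± 0.23 (adjusted p = 1.29e-12), Ndufa3 of complex I with -3.50 ± 0.65 (adjusted p = 3.68e-04) and Atp5h of ATP synthase with -2.50 ± 0.27 (adjusted p = 7.38e-10).

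Cytosolic ribosomal protein genes had 38 of 53 lower and none higher (median -1.89). They took 2.09% ± 0.26 of UMIs in adult and 8.33% ± 1.62 at E12.5 (SD, n = 4), and 2.01% and 8.16% without Rpl32 and Rps29. Rps26, a protein of the small subunit, was measured at 171, 154, 104 and 255 CPM in the adult libraries and 2365, 2309.9, 4233 and 3598 CPM in the E12.5 libraries (log2 fold change -4.20 ± 0.46 (SE), adjusted p = 2.83e-06), without overlap. Rpl26 fell with -3.57 ± 0.31 (adjusted p = 3.92e-09) and Rpl37 with -3.58 ± 0.37 (adjusted p = 2.16e-09). Rpl32 did not pass with all libraries and was called lower without adult replicate 1 (-4.04 (adjusted p = 4.52e-05)). Ribosomal protein genes have many near-identical processed copies, and how reads were shared among them is not given, so single members are uncertain. Mitochondrial ribosomal protein genes had 27 of 51 lower and none higher (median -0.89), led by Mrps21 (-2.38 ± 0.29, adjusted p = 1.18e-08).

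Other housekeeping sets also had more lower than higher members. The proteasome had 16 of 28 lower and none higher (median -0.91), with Psmb1, a core subunit, at -2.12 ± 0.25 (adjusted p = 5.97e-09). Chaperones had 12 of 26 lower and 2 higher (median -0.82): the chaperonin gene Cct3 fell with -2.69 ± 0.37 (adjusted p = 1.09e-07) and Hsp90ab1 with -1.96 ± 0.15 (adjusted p = 4.25e-14), while Dnajb9 and Hspa5, chaperones of the endoplasmic reticulum, rose (Dnajb9 2.59 ± 0.47, adjusted p = 2.33e-05; with batch as a covariate 1.29 (adjusted p = 0.428)). Translation factors had 20 of 50 lower and 2 higher (median -0.74). Eef1g, of the elongation factor 1 complex, fell with -2.85 ± 0.23 (adjusted p = 2.97e-13), and the 2 that rose encode kinases that slow translation, Eef2k (2.71 ± 0.45, adjusted p = 4.84e-06) and Eif2ak3 (1.95 ± 0.55, adjusted p = 0.00452; with batch as a covariate 1.61 (adjusted p = 0.362); without adult replicates 1 and 2 1.59 (adjusted p = 0.119)).

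Splicing factors had 20 of 49 lower and 2 higher (median -0.59), with Snrpd2, a core protein of the spliceosome, at -2.33 ± 0.30 (adjusted p = 3.08e-08). Nucleolar genes linked to Myc had 7 of 13 lower and none higher (median -0.91), with the nuclear transport gene Ran at -2.20 ± 0.26 (adjusted p = 7.11e-09). Of 9 genes of serine, one-carbon and nucleotide synthesis 2 fell (Gart, -1.31 ± 0.40, adjusted p = 0.00917, and Cad, -1.22 ± 0.44, adjusted p = 0.0262) and none rose. Both calls were lost with batch as a covariate (-1.16 (adjusted p = 0.177) and -1.62 (adjusted p = 0.104)), and Gart also without adult replicate 1 (-1.04 (adjusted p = 0.0535)). The call on Cad was lost in 12 of the 19 alternatives that tested it, among them DESeq2 (-1.24 (adjusted p = 0.0701)). Of 3 long noncoding RNAs Dleu2 rose (1.39 ± 0.54, adjusted p = 0.0396) and Snhg6 fell (-1.40 ± 0.30, adjusted p = 1.98e-04). The call on Dleu2 was lost in 13 of the 18 alternatives that tested it, among them DESeq2 (1.42 (adjusted p = 0.0671)). Malat1 did not pass (2341 ± 1239.6 against 1125 ± 702 CPM), but was called higher without E12.5 replicates 1 and 2 (2.07 (adjusted p = 0.0215)).

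The E18.5 brain libraries, which took no part in the contrast, gave a level between embryo and adult in age. All 6 were sequenced in the batch of the adult libraries, so their place between the ages and that batch cannot be told apart. The E18.5 mean lay between the E12.5 and adult means for 750 of the 870 rows higher in adult (86.2%), for 853 of the 1013 lower (84.2%), and for 1092 of the 3000 rows not called (36.4%). Since the called rows were chosen for the distance between the 2 outer ages, the shares of called and other rows are not compared by a test. Thrsp, at 0.922 CPM, and Slc1a3, at 12.2 CPM, were far below their adult levels at E18.5. Tgm2 was at 0 in the E18.5 libraries.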

How the data were processed

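Single sorted cells were profiled by MARS-seq, 3' end libraries of polyadenylated RNA, per the labels' protocols. The authors deposited UMI counts per gene row and well, with bcl2fastq 2.15.0.4 and build mm9 per the submitters' processing notes; for the aligner, annotation and UMI collapsing the sources used here give nothing. The table held 27297 gene rows, of which 2109 join several symbols, and wells were assigned to libraries by the deposited amplification batch. Wells with 1 cell and at least 300 UMIs were kept (129 adult and 42 E12.5 wells were left out), doublets were not called, and counts were summed per library. All 18 libraries entered 1 fit of 4 groups with edgeR 4.0.16 (limma 3.58.1, R 4.3.3): TMM scaling, filterByExpr, robust quasi-likelihood test, Benjamini-Hochberg adjustment, contrast adult minus E12.5, called under 0.05. CPM are on library totals. The sign ± gives SD over 4 libraries for levels and an approximate SE for log2 fold changes. That SE is the absolute log2 fold change divided by the square root of the test's F statistic. Intervals of ratios are exact, at 95%, and like the floor of 3 UMIs over a group (8.30 CPM in adult, 2.01 CPM at E12.5) cover counting error only.

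No 2 libraries agreed within sampling noise: the chi-square statistic per degree of freedom was 1.91 to 2.16 between adult libraries, 1.44 to 1.65 within E12.5 plates and 3.94 to 4.47 between them. Empty wells held a median of 22.5 UMIs in adult and 43 at E12.5. The fit was tested on simulated data with the real library sizes and gene means pooled over all 18 libraries. Of 93 tested genes changed by 2 on the log2 scale 88.2% were recovered, of 90 changed by 1, 33.3%. Of unchanged genes 0.166% were called. The simulation gave all genes 1 common spread and held no difference between plates, so these rates need not hold for the real data. Genes were named by a rule: the sort gate; the 15 largest called rises and falls among rows of a single symbol whose groups did not overlap, with 100 CPM or more in 1 group, without genes of ribosomal proteins, mitochondria or hemoglobin and without numbered gene models; and up to 5 called and 2 other members of each list. Mpo, Csf3r and Ly6c2 were added after their values were seen. A few further genes are not reported here. The comparison, the members and all lists were chosen with earlier results of these data known. Promoter windows come from RefSeq (GRCm38.p6), matched by symbol; as the counts were made on mm9, no coordinates were moved between builds. Alternatives were DESeq2 1.42.0, RLE scaling, other UMI minimums, thinning, no filter, sums per plate, the 8 libraries alone, libraries or plates left out, and sequencing batch as a covariate.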

Additional observations from a re-analysis of the deposited data

Results flagged for a closer look

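In 48 of the 550 sets of 4 libraries examined, 1 library lay far from the other 3, where chance alone would give about 5% of such sets. In 14 of the 48 the other 3 libraries held 0 UMIs, which by itself sets the result, and 34 of the other 536 sets remained. Levels in CPM are given in brackets; several of the lowest stand for 1 or 2 UMIs where the other adult libraries held 0. Adult replicate 1 was far above for Tgm2 (191), Apoc1 (10.1), Spc24 (20.1), Vim (694), 4632428N05Rik (4804), the row of Lyz1 and Lyz2 (101), Ncapd2 (10.1), the row of H19 (30.2) and Rpl32 (2895) and far below for Tapbp (281). Adult replicate 2 was far above for Birc5 (11.0), Cyp4f18 (11.0), Tacc3 (22.0), Pf4 (22.0), Hells (11.0), Kif22 (11.0) and Hist1h1b (264) and far below for H2afx (33.0) and Snrpa1 (33.0). Adult replicate 3 was far above for Slc1a3 (187), Cfb (10.4), C1qc (11232), Mcm6 (364), Cenpf (208), Pgk1 (10.4) and Ly6c2 (1870.3) and far below for Pmp22 (447). Adult replicate 4 was far above for Sall1 (912), Oasl2 (13.4) and S100a10 (26.8) and far below for Clspn (0), Hist1h2bc (80.5), Tpm4 (0), the row of Hnrnpu (282) and Rrp1 (134).

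E12.5 replicate 1 was far above for Gsn (261) and far below for Mcm2 (121). E12.5 replicate 2 was far above for Tspan7 (11.2), Nav3 (15.0), Eef1g (957) and Eif3c (543). E12.5 replicate 3 was far above for Hmgn1 (506) and Tubb2a (441). E12.5 replicate 4 was far above for Tubb5 (1786) and far below for Mef2a (35.0), Cd14 (65.7), Irf9 (26.3) and Lgals1 (508).

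Wells that received no cell were not part of any comparison and still held UMIs: a median of 22.5 over the 8 empty wells of the adult libraries, with 29 at most, and of 43 over the 8 of the E12.5 libraries, with 80 at most. None held a UMI of Prtn3, Mpo, Elane, Ctsg or Ly6c2, but wells with so few UMIs could miss them at the levels measured.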

How the results depend on the processing

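Against 1883 calls (870 higher, 1013 lower), thinning every cell to 300 UMIs left 732 (370 and 362), thinning libraries to 1 total 1060 (523 and 537), and sequencing batch as a covariate 910 (356 and 554). Thinning leaves fewer UMIs to test and changes which rows pass the filter, while the cause of the loss with the covariate was not tested. Without 1 library there were 1710 to 1797 calls (761 to 858 higher, 892 to 955 lower), and the other settings stayed within 1.5 times. Counts summed per plate gave 1706 calls. That setting lost the calls on 19 of 197 named genes, among them Cx3cr1, C5ar1, Irf9, Lgals3bp, Tgfbr2, Trf, Pgk1, Mpo and Ly6c2. Of 275 named genes 197 were called, and 123 of these kept direction and call in each of 21 settings that tested them. The batch covariate kept 137 of the 197 calls and only the direction of 58, and the estimates of Fkbp5 (0.49) and Sall1 (-1.23) changed sign. The share of cells with immediate early UMIs, 78.2% and 3.60% at 2 UMIs, was 92.8% and 23.3% at 1, 61.6% and 0.411% at 3, and 92.3% and 8.76% at 500 UMIs a cell; for cell cycle genes 8.77% and 41.7% became 34.8% and 69.3%, 1.73% and 26.5%, and 17.0% and 57.6%. At 500 UMIs 353 adult and 692 E12.5 cells remained. Leaving out rows high in 1 library (Cdk1, Cenpf, Mcm6 and Ube2c, or Rpl32 and Rps29), and libraries or plates for the granule genes, was chosen after seeing the data. Depth limits what can be called among low genes, more in adult than at E12.5. No paired analysis was possible because the replicate numbers follow accession order and the labels tie no adult library to an E12.5 library.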
